A study of Mus musculus with 6 samples.

Results

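Ptms and Ptma, which encode the small acidic nuclear proteins parathymosin and prothymosin alpha, were followed by name through read counts from the fetal mouse cortex. They are 2 of the 45583 gene rows counted, and both passed the filter that kept 13741 genes for testing. Ptms was chosen by its values in the comparison of BPA with vehicle, where its unadjusted p ranked 3 of 13741, and Ptma was added as the related gene with its own value already known. Their differences between the groups are therefore given as a description and support nothing further. RNA came from brain cortex of male fetuses (genotype WT, SRY +) of the Cyp19-EGFP strain at GD15.5 (gestational day, GD). The transgene of this strain is an added artificial chromosome with the aromatase gene Cyp19a1 and a green fluorescent protein inserted before its start codon. The background is FVBN, and the label WT does not say whether these fetuses carried the transgene. Dams had been injected under the skin from GD10.5 to GD14.5 with 50 µg/kg bisphenol A (BPA, a plastic monomer that mimics estrogen) or with 0 µg/kg in the vehicle, peanut oil. Each group held 3 fetuses with 1 library each, and the labels do not say which fetuses shared a dam, so the spread between libraries may be partly a spread between litters.

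Prothymosin alpha and parathymosin are highly charged proteins that lack a stable fold, and both bind linker histone H1 in the nucleus and loosen its hold on chromatin. Prothymosin alpha is abundant in dividing cells, is a target gene of MYC, restrains the apoptosome (the complex that activates caspase-9) and frees the antioxidant factor NRF2 from its inhibitor KEAP1. It also binds a repressor of the estrogen receptor, which is the product of Phb2. The peptide thymosin alpha 1 is cut from its N-terminus by the protease legumain. Parathymosin is less studied, and has been described as a partner of linker histone and of the glucocorticoid receptor machinery.

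Ptms (ENSMUSG00000030122.12) lies on the minus strand at chr6:124913681-124920103 and Ptma (ENSMUSG00000026238.14) on the plus strand at chr1:86526726-86530712, in GENCODE M21 coordinates on GRCm38. The coding transcript read for each, Ptms-201 and Ptma-201, has 5 exons. The coding sequence of Ptms has 101 codons, of which 46 (45.5%) specify glutamate or aspartate and 18 specify lysine or arginine. The coding sequence of Ptma has 111 codons, of which 53 (47.7%) are acidic and 10 basic. The acidic codons of Ptms are 35 for glutamate and 11 for aspartate, and those of Ptma 35 and 18. In a global alignment the coding sequences were identical at 208 of 299 aligned bases (69.6%). With gaps counted, this was 60.6% of 343 alignment columns. The most acidic stretch of 30 codons in each gene is shown because it carries the shared feature of the pair. It runs across exons 3 and 4 in both, at chr6:124914441-124914698 on the minus strand (codons 45 to 74, of which 25 are acidic) and at chr1:86529492-86529759 on the plus strand (codons 52 to 81, of which 24 are acidic), with the intron left out. Capitals mark the codons for glutamate or aspartate.
Ptms codons 45 to 74: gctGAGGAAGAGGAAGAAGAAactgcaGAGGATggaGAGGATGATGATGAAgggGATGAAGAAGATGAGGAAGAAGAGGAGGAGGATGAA
Ptma codons 52 to 81: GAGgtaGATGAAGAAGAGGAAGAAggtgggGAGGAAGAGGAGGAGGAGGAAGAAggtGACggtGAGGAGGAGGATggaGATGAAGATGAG
The longest unbroken run of acidic codons was 12 in Ptms and 8 in Ptma.

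The RefSeq promoter windows (GRCm38.p6, 250 bases before to 50 bases after the start) are shown because BPA mimics estrogen, so that motifs of estrogen receptor binding can be looked for in them. The window of Ptms is chr6:124917897-124918196 on the minus strand and lies inside the GENCODE gene, which begins farther upstream. The window of Ptma is chr1:86526307-86526606 on the plus strand and ends before the GENCODE gene begins. Capitals mark the GC box (GGGCGG or its reverse complement).
Ptms promoter: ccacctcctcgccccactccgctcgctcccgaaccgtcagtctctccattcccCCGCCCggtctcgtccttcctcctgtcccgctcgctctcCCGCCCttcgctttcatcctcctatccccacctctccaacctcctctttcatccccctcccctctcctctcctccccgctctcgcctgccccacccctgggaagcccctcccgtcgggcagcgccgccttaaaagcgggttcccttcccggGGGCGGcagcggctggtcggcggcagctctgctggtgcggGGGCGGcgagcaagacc
Ptma promoter: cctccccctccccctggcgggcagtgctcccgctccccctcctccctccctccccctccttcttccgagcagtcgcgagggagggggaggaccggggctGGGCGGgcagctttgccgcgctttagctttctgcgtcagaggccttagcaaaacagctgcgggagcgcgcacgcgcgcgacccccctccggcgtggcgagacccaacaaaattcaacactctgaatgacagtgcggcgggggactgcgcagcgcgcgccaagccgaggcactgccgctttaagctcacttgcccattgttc
GC made up 70.3% of the Ptms window and 68.0% of the Ptma window, against a median of 52.7% over 32851 promoter windows. The GC box, GGGCGG on either strand, occurred 4 times in Ptms and 1 time in Ptma, and 35.7% of all windows hold it. The estrogen half-site AGGTCA, found in 16.3% of windows, had 0 matches in either gene on either strand. The E-box CACGTG bound by MYC (7.15%) and TATAAA (13.6%) also had 0 matches in both windows, on either strand. These letters say nothing of sites outside the windows.

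Ptms was among the most abundant transcripts of the fetal cortex. At a level per exonic length of 615 RPKM ± 43.7 (SD, n = 3) in vehicle and 465 RPKM ± 11.3 (SD, n = 3) in BPA, it ranked 13 of 13150 genes with a known length, where the median gene was at 7.03 RPKM. Ptma was at 149 RPKM ± 16.2 in vehicle and 121 RPKM ± 15.04 in BPA (SD, n = 3) and ranked 147. The Ptms level per length was 4.38, 4.25 and 3.85 times that of Ptma in vehicle replicates 1 to 3, and 3.51, 3.81 and 4.33 times in BPA replicates 1 to 3. The ranges of this ratio overlapped between the groups. The level of Ptma, its rank and this ratio are uncertain, because 20.4% of its stretches of 50 bases also occur in other transcripts. RPKM ranks of Ptms lay between 12 and 18 in every library and those of Ptma between 120 and 213.

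Ptms was counted 6273, 7555 and 5084 times in vehicle replicates 1 to 3 and 4922, 4545 and 2553 times in BPA replicates 1 to 3. Scaled to library size these counts were 923, 1064 and 1003 CPM in vehicle and 773, 739 and 745 CPM in BPA. Each vehicle library was above each BPA library, and the BPA libraries lay close together. The lowest vehicle library and the highest BPA library were 150 CPM apart. Such a separation in the direction of lower in BPA was found for 3.56% of the genes tested, and one in the direction of higher for 3.19%. The means were 996 CPM ± 70.7 (SD, n = 3) and 752 CPM ± 18.3 (SD, n = 3), a coefficient of variation of 7.09% and 2.43%. Counting error alone was 1.15% to 1.98% of a library's value.

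The log2 fold change of Ptms was -0.41 with a standard error of 0.0911 (95% interval -0.60 to -0.21), which is 24.5% lower in BPA. Its unadjusted p was 0.000422 (edgeR, quasi-likelihood), and after Benjamini-Hochberg adjustment over all 13741 genes it was 0.9998. The threshold was an adjusted p of 0.1, which 0 genes (0%) passed, while 302 genes (2.2%) had an unadjusted p under 0.05, 162 lower (1.18%) and 140 higher (1.02%) in BPA. The adjusted p of Ptms was 0.0898 with DESeq2 and 0.0381 in edgeR when every gene with a count was tested, so the call depended on the test and the filter, and the log2 fold change was -0.41 in both. In these bulk samples less Ptms RNA per cell and fewer cells rich in Ptms cannot be told apart.

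Ptma was counted 1294, 1606 and 1193 times in vehicle and 1268, 1076 and 532 times in BPA, in the order of replicates 1 to 3. Its scaled levels were 190, 226 and 235 CPM in vehicle and 199, 175 and 155 CPM in BPA. The groups overlapped through a single pair, vehicle replicate 1 and BPA replicate 1, and the other 8 of 9 pairs had the vehicle library above the BPA library. The means were 217 CPM ± 23.7 and 176 CPM ± 22 (SD, n = 3). The log2 fold change of Ptma was -0.30 with a standard error of 0.113 (95% interval -0.53 to -0.056). The same edgeR test gave it an unadjusted p of 0.0189, which was 0.9998 once adjusted. Its spread between libraries was wider than that of Ptms, at a coefficient of variation of 10.9% in vehicle and 12.5% in BPA.

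**Figure D1:**
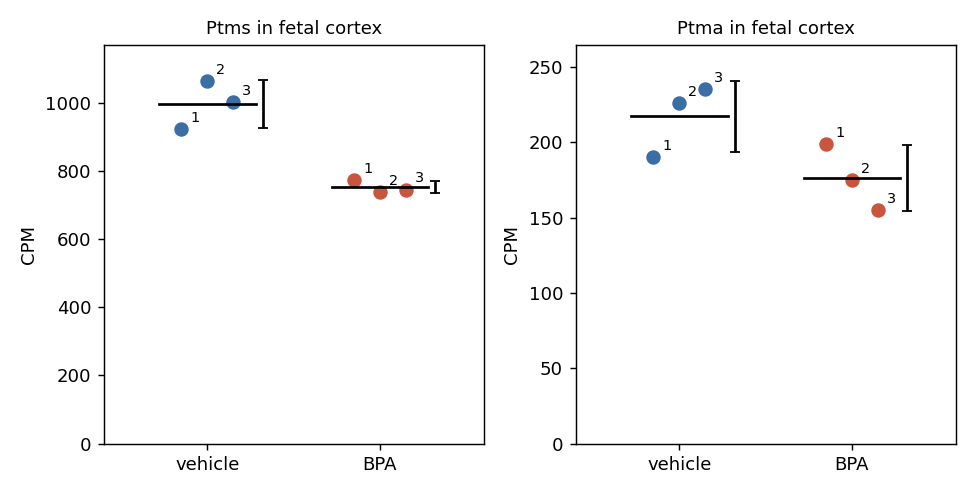
CPM of Ptms and Ptma in each of the 6 libraries (points, with the replicate number beside them), with the group mean as a line and 1 SD as the bar on its right; both vertical axes start at 0. The Ptms libraries of the BPA group sit between 739 and 773 CPM, below the vehicle range of 923 to 1064 CPM, whereas the Ptma groups overlap.

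The standing of Ptms was then read among genes of like abundance, taken as the 100 genes next above and the 100 next below in average log2 CPM. Only 83 genes were more abundant than Ptms, so the set held 184 genes with mean levels from 525 to 4125 CPM. Ptms ranked 1 of these 184 in absolute log2 fold change and in unadjusted p. The median absolute log2 fold change of the set was 0.048 and its 95th percentile was 0.15. Within groups Ptms varied less than most of the set, with a pooled SD of 0.077 log2 CPM (rank 43 from the lowest) against a median of 0.115. The neighbours in abundance were Kif5c (a kinesin heavy chain) and Ddx5 (an RNA helicase) just above, and Huwe1 (a ubiquitin ligase) and Marcksl1 (an actin-binding MARCKS relative) just below. Their log2 fold changes were -0.08 (SE 0.0980), 0.07 (SE 0.0933), 0.07 (SE 0.123) and -0.09 (SE 0.0997), and the groups overlapped for all 4.

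Over all 13741 genes Ptms ranked 723 in absolute log2 fold change, so that 5.26% of genes differed by as much. In the like-abundance set, 5 genes (2.72%) had an unadjusted p under 0.05, near the 2.2% of all genes, and all 5 were lower in BPA. Besides Ptms these were Basp1 (a membrane protein of growth cones), Tuba1a (an alpha tubulin of migrating neurons), Nnat (neuronatin, an imprinted membrane peptide) and Clip3 (a microtubule-linked adaptor), which are named after their values were seen. Basp1 was at 984, 1126 and 1123 CPM in vehicle and 912, 876 and 943 CPM in BPA, a log2 fold change of -0.24 (SE 0.0926). Log2 fold changes were -0.23 (SE 0.0999) for Tuba1a, -0.25 (SE 0.108) for Nnat and -0.20 (SE 0.0930) for Clip3. None of the 4 passed the adjusted threshold. Without BPA replicate 2, Gria2 (a glutamate receptor subunit) and Miat (a long noncoding RNA) had larger absolute differences than Ptms, at 0.40 each and higher in BPA, and Ptms ranked 3 of 180. Ptms ranked 5 without vehicle replicate 2 and BPA replicate 2 together.

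**Figure D2:**
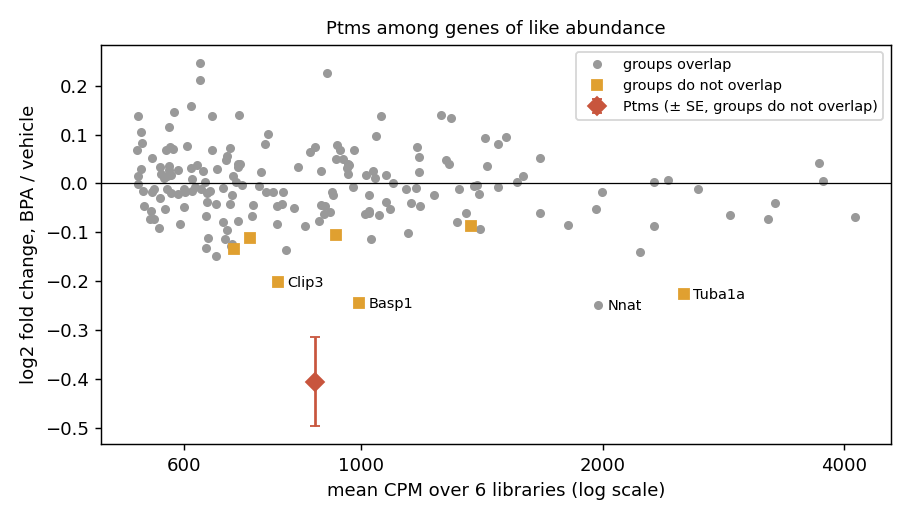
Log2 fold change of BPA over vehicle against mean CPM (log axis) for Ptms (diamond, with its standard error) and the other genes of like abundance. Gold squares are genes whose groups do not overlap and grey points are genes whose groups do; Ptms at -0.41 is the lowest of the set, below Nnat at -0.25 and Basp1 at -0.24.

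For Ptma the corresponding set, with 100 genes on either side, spanned 186 to 209 CPM. Ptma ranked 1 in absolute log2 fold change, against a median of 0.049, but its pooled SD of 0.17 log2 CPM ranked 161 from the lowest. Next to it in abundance were Ddx42 and Srsf3, both factors of RNA splicing, and Nfe2l1 and Zkscan1, both transcription factors, with log2 fold changes from -0.08 to 0.02. In that set 2 genes (0.995%) had an unadjusted p under 0.05, Ptma among them.

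Reads of Ptma can also fall on processed copies of the gene. Of the 1595 words of 50 bases in Ptma transcripts, which is the read length of the study, 325 (20.4%) also occurred in transcripts of 12 other annotated genes, all of them processed pseudogenes. None of the 1603 words of Ptms did. The largest sharer was Gm4617 (chr3:124385667-124385997), a processed pseudogene whose own words were shared with Ptma at 86.5%. Gm4617 was counted 396, 360 and 268 times in vehicle and 403, 323 and 152 times in BPA. These counts came to 22.4% to 30.6% of the Ptma counts in vehicle and 28.6% to 31.8% in BPA. Its level was 53.9 CPM ± 3.89 in vehicle and 53.4 CPM ± 9.50 in BPA (SD, n = 3), a log2 fold change of -0.0018 (SE 0.132). The other copy that met the rule, Gm9800 (chr14:8800000-8800335), had 2 to 11 counts per library. Whether counting kept reads with several alignments is not stated, so the counts of Ptma and Gm4617 are both uncertain. Summed with the 2 copies, Ptma was at 272 CPM ± 20.5 in vehicle and 231 CPM ± 32.1 in BPA (SD, n = 3), with a log2 fold change of -0.23 (SE 0.109).

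**Figure D3:**
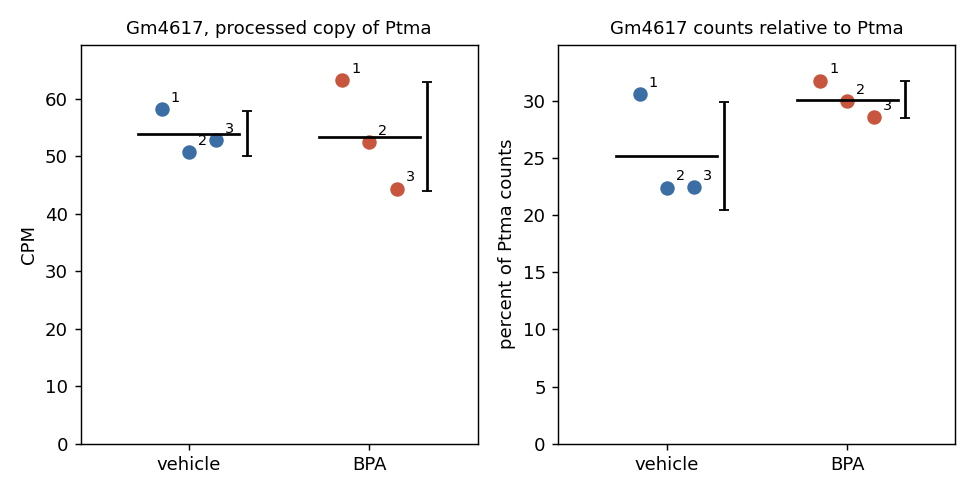
Level of the processed pseudogene Gm4617 in CPM (left) and its counts as a percent of the Ptma counts (right) in each library, with group means as lines and 1 SD as bars; both axes start at 0. The CPM ranges overlap, and the share is above 28% in all 3 BPA libraries and in vehicle replicate 1.

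The genes around the members were examined within 50 kb. An antisense transcript, A230083G16Rik (chr6:124916863-124925844), overlaps the 5′ part of Ptms from the plus strand. It was counted 14 to 36 times per library against 2553 or more for Ptms, with a log2 fold change of -0.12 (SE 0.260). Lag3, an immune checkpoint receptor gene 1976 bases from Ptms, had 8 to 23 counts per library and a log2 fold change of -0.30 (SE 0.317). Mlf2, a myeloid leukemia factor, was at 334 CPM ± 35.0 in vehicle and 302 CPM ± 10.6 in BPA (SD, n = 3), a log2 fold change of -0.14 (SE 0.0980). Gpr162, an orphan receptor, and Cops7a, a subunit of the COP9 signalosome, had log2 fold changes of -0.05 (SE 0.109) and -0.05 (SE 0.117). Pde6d, a carrier of prenylated proteins and the tested neighbour of Ptma, had a log2 fold change of 0.02 (SE 0.137). By edgeR's quasi-likelihood test 0 of these 6 neighbours had an unadjusted p under 0.05, and the smallest was 0.163 for Mlf2.

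Genes of the pathways in which the thymosins act, and the beta thymosins, which are related in name only, were taken from 10 lists. The counted rows held 102 of these genes, of which 90 were tested, 0 passed the adjusted threshold and 1 (1.11%) had an unadjusted p under 0.05, against 2.2% of all genes. The exception was Bax, a pore-forming promoter of cytochrome c release, counted with the apoptosome list. It was at 59.6, 56.9 and 61.1 CPM in vehicle and 47.9, 47.3 and 45.8 CPM in BPA, a log2 fold change of -0.33 (SE 0.108) with an unadjusted p of 0.00769. The groups did not overlap for Bax. Of the 90 genes, 55 were below 0 in log2 fold change and 35 above, with a median of -0.023 where the median of all genes was 0.0016. The groups did not overlap for 6 of the 90, all lower in BPA, against 6.75% of all genes in either direction and 3.56% in this one.

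Linker histones are the binding partners of both proteins. H1f0, the replacement linker histone, was their most abundant member at 220 RPKM ± 13.4 in vehicle and 216 RPKM ± 18.2 in BPA (SD, n = 3), a log2 fold change of -0.03 (SE 0.0960). H1fx was at 63.3 RPKM ± 5.88 and 58.6 RPKM ± 11.4 (SD, n = 3), a log2 fold change of -0.10 (SE 0.135). Only 3 of 7 linker histone rows were tested, and the list median was -0.025. The level of H1f0 per length was thus between those of Ptms and Ptma.

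The list of acidic histone chaperones had 19 of 19 genes tested, with a median log2 fold change of -0.042. Anp32a was at 76.8 RPKM ± 7.38 in vehicle and 71.8 RPKM ± 4.67 in BPA (SD, n = 3), and Nap1l4 at 76.6 RPKM ± 6.44 and 81.0 RPKM ± 5.06. Asf1b and Npm3 had groups that did not overlap, with log2 fold changes of -0.38 (SE 0.212) and -0.28 (SE 0.235), at 21 to 96 and 14 to 42 counts per library. Proteins of the HMG families, which compete with linker histone for nucleosomes, had a median of -0.20 over 9 genes, of which 6 were below 0. Hmgn1 and Hmgn3, the members with the highest level per length, had log2 fold changes of -0.23 (SE 0.138) and -0.22 (SE 0.156). Hmgn5 was the one HMG gene whose groups did not overlap, at -0.25 (SE 0.212) with 24 to 51 counts per library. The other 3 of the 9 were above 0, among them Hmgb1 with the largest absolute change of the list, at 0.28 (SE 0.171). Groups that did not overlap, lower in BPA, were found for 2 of 19 chaperones and 1 of 9 HMG genes, against 3.56% of all genes. By edgeR's quasi-likelihood test 0 of the 19 chaperone genes and 0 of the 9 HMG genes had an unadjusted p under 0.05. Of all genes tested, 2.2% had one.

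The KEAP1-NRF2 list had 12 genes tested with a median of -0.0040 and log2 fold changes from -0.36 to 0.28. Its most abundant members per length were Sqstm1, an autophagy receptor that binds KEAP1, at -0.03 (SE 0.0932), and Cul3, the ligase scaffold of KEAP1, at -0.06 (SE 0.0980). Apart from Bax, the apoptosome list had a median near 0, at 0.015 for all 11 genes tested. Mcl1, a survival factor, was at 0.03 (SE 0.0907). Bcl2l1, another survival factor, did not overlap between the groups, at -0.13 (SE 0.0964).

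Among nuclear receptor partners (10 tested, median 0.0064), Phb2 had a log2 fold change of -0.09 (SE 0.105) and the corepressor gene Ncor1 of -0.02 (SE 0.0994). Esr1 and Esr2, the nuclear estrogen receptors, were at or under 3 counts in every library, where no difference could be detected. The MYC and E2F list had a median of -0.037, with Mycn at -0.03 (SE 0.1003), Mycl at -0.09 (SE 0.101) and E2f2 at -0.30 (SE 0.188). The E2f2 groups narrowly did not overlap, with the lowest vehicle library at 10.28 CPM and the highest BPA library at 10.24 CPM. E2f2 had 29 to 89 counts per library. In the list of processing and import, Kpnb1 and Kpna3, both importins, were at -0.08 (SE 0.0935) and -0.05 (SE 0.0940). Kpna2, also an importin, had the highest log2 fold change of the 10 lists at 0.86 (SE 0.408), with 5 to 27 counts per library and overlapping groups.

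The beta thymosins bind actin and share only a name with Ptms and Ptma. Tmsb4x was at 410 RPKM ± 47.4 in vehicle and 431 RPKM ± 57.0 in BPA (SD, n = 3), a log2 fold change of 0.07 (SE 0.113), and Tmsb10 was at 34.9 RPKM ± 9.14 and 34.3 RPKM ± 6.19 (SD, n = 3), a log2 fold change of -0.01 (SE 0.176). Proliferation markers, with which prothymosin alpha is usually associated, had a median of -0.029 over 10 genes. Top2a, a mitotic topoisomerase, was at -0.04 (SE 0.122) and Pcna, the replication clamp, at -0.04 (SE 0.135).

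**Figure D4:**
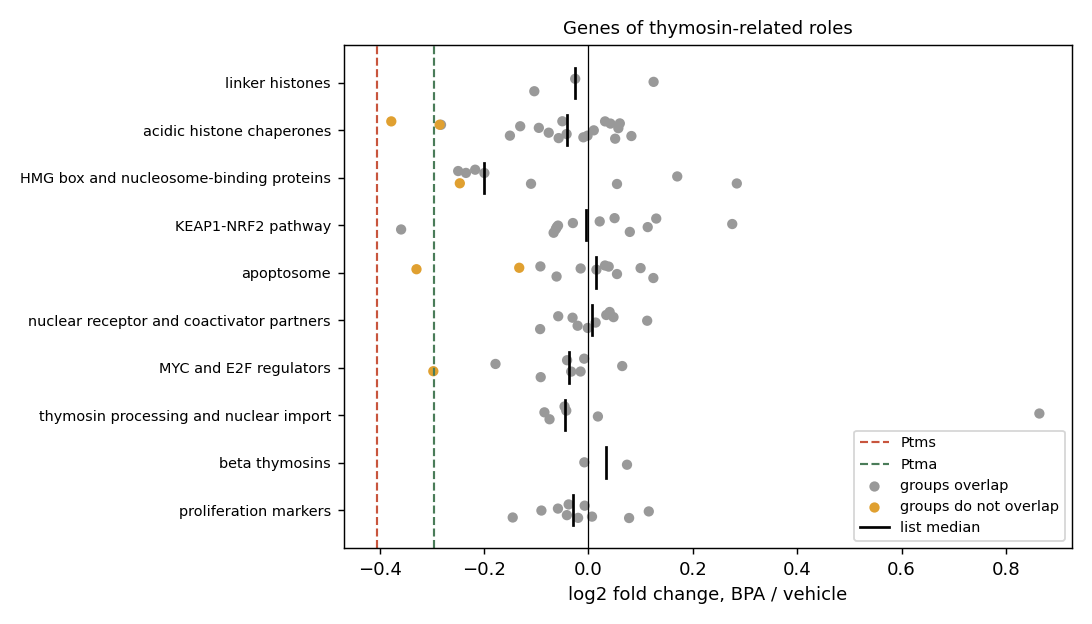
Log2 fold changes of BPA over vehicle for the 90 tested genes of the 10 lists (points; gold where the groups do not overlap), with list medians as black bars and the values of Ptms (-0.41) and Ptma (-0.30) as dashed lines. No listed gene lies below Ptms.

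Over the 6 libraries the log2 CPM of Ptms and Ptma had a Pearson r of 0.84, which ranked 29 among 2711 genes averaging at least 100 CPM when set against Ptms. The 5 genes most like Ptms were Map4 (a microtubule-associated protein, r = 0.96), Basp1 (0.95), Aplp2 (an amyloid precursor relative, 0.94), Cmip (an adaptor protein, 0.94) and Casc4 (0.93). The groups did not overlap for these 5, as for 3.56% of all genes in this direction, but a pattern like that of Ptms, whose own groups do not overlap, largely fixes this. Their log2 fold changes were smaller than that of Ptms, from -0.24 for Basp1 to -0.06 for Map4. The genes most like Ptma were Ncbp1 (a cap-binding protein, r = 0.96), Eif4enif1 (a carrier of the translation factor eIF4E, 0.95), Pcyox1 (0.94), Lsm14a (a processing body protein, 0.94) and Mgat5b (a glycosyltransferase, 0.93). These points share library, depth and dissection, and since the groups differ for Ptms, the likeness in part restates that difference.

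Cortical markers were present in every library. The 8 markers of projection neurons summed to 5875 to 6374 CPM in vehicle and 5802 to 6111 CPM in BPA, and those of radial glia and progenitors to 1662 to 1876 and 1622 to 1855 CPM, so both overlapped. Markers of the ventral telencephalon did not overlap. Their 10 genes, all counted in every library, summed to 1218, 1208 and 1070 CPM in vehicle and to 1017, 1026 and 924 CPM in BPA. All 10 were below 0 in log2 fold change. The groups did not overlap for 7 of the 10, all lower in BPA, against 3.56% of all genes. By edgeR's quasi-likelihood test 5 of the 10 had an unadjusted p under 0.05, all lower, against 1.18% of all genes, and among them were Nkx2-1 at -1.25 (SE 0.220) and Lhx8 at -1.34 (SE 0.314). Their part in the lower Ptms level was not tested. Blood markers summed to 284 to 598 CPM in vehicle and 333 to 414 CPM in BPA, microglia markers to 52.9 to 70.0 and 59.05 to 65.8 CPM, and vessel and meninges markers to 156 to 216 and 151 to 206 CPM. Choroid plexus markers stood apart in vehicle replicate 2 (243 CPM) and BPA replicate 2 (381 CPM), against 24.7 to 29.1 CPM in the other 4 libraries. Without both of these libraries the log2 fold change was -0.34 (SE 0.109) for Ptms and -0.25 (SE 0.131) for Ptma.

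Total counts ran from 3444601 in BPA replicate 3 to 7180835 in vehicle replicate 2. Leaving out each library in turn gave Ptms a log2 fold change between -0.46, without vehicle replicate 1, and -0.35, without vehicle replicate 2. For Ptma it lay between -0.39, without BPA replicate 1, and -0.22, without BPA replicate 3. The unadjusted p of Ptma was 0.103 without BPA replicate 3, 0.0934 without vehicle replicate 3 and 0.0526 without vehicle replicate 2 in edgeR's quasi-likelihood test.

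**Figure D5:**
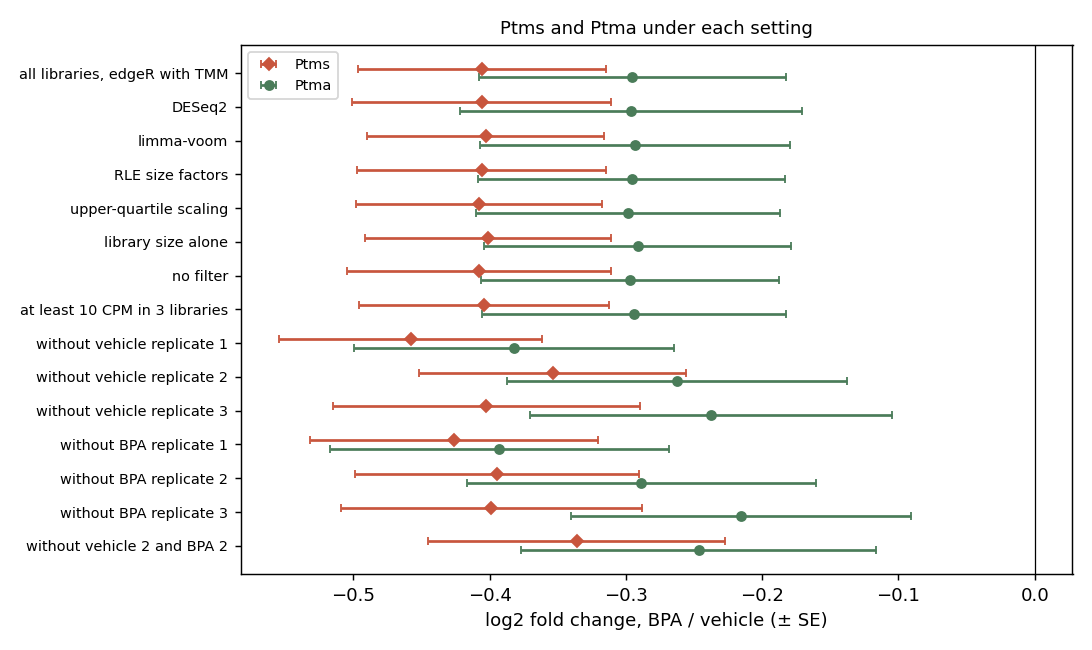
Log2 fold changes of BPA over vehicle with their standard errors for Ptms (diamonds) and Ptma (circles) under each test, scaling, filter and left-out library. Ptms stays between -0.46 and -0.34 and Ptma between -0.39 and -0.22.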

How the data were processed

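The deposited table held raw read counts per gene symbol for 6 libraries, 3 of vehicle and 3 of BPA. According to the study's methods and the submitters' processing notes, the authors sequenced single-end reads of 50 bases from strand-specific libraries, aligned them with TopHat2 2.0.14 to GRCm38 and counted them with featureCounts on GENCODE models. Strand and multi-alignment options of the counting are not given in the sources used here. The study's methods and the labels give GD15.5 as the age, and its results text a later day. Groups came from the treatment labels, and replicates were numbered in accession order, so a shared number is no pairing given by the labels. The choroid-rich libraries carry the same number, and the labels do not say whether they were handled together. Both members, the gene lists and the tests were chosen with earlier results of these data known.

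The default filterByExpr rule (minimum count 10, minimum total 15) kept 13741 genes with 99.7% of counts. BPA was compared with vehicle by the quasi-likelihood test of edgeR 4.0.16 in R 4.3.3 on TMM-scaled counts, with no covariate, Benjamini-Hochberg adjustment over all genes and a threshold of 0.1. Alternatives were DESeq2 1.42.0, limma-voom (limma 3.58.1), other scalings and filters, and omission of libraries. Omitting both choroid-rich libraries was chosen after seeing the data. CPM used TMM-scaled library sizes, and RPKM divided CPM by the exonic length in GENCODE M21, known for 95.7% of tested genes. Likeness used log2 CPM with a prior count of 2. Standard errors follow from the quasi-likelihood statistic. The fit was tested on simulated data. A count of 3 was taken as the floor of detection, which like the counting errors covers counting error only. Coding and shared sequences were read from GENCODE M21 transcripts and promoters from RefSeq (2 of 2 members matched).

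Genes named were both members, copies sharing 5% of a member's 50-base words or 20% of their own, tested neighbours within 50 kb, the 2 most abundant genes and any with an unadjusted p under 0.05 in each list, the 5 genes most alike in pattern, and the genes next in abundance. Genes outside this rule, such as those whose groups did not overlap, were named after their values were seen. One gene that this rule names is not reported here.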

Additional observations from a re-analysis of the deposited data

How the results depend on the processing

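The log2 fold change of Ptms was below 0 under every test, scaling, filter and left-out library, from -0.46 to -0.35 when 1 library was left out. It passed the adjusted threshold with DESeq2 (-0.41, adjusted p of 0.0898) and with no filter (-0.41, adjusted p of 0.0381), and in none of the other 12 alternatives. Ptma was below 0 in all 15 alternatives, from -0.39 to -0.22 when 1 library was left out, and passed the adjusted threshold in none. The count of genes past the adjusted threshold, 0 with edgeR's quasi-likelihood test (302 at an unadjusted p under 0.05), was 3 with DESeq2, 19 with no filter, 15 without both choroid-rich libraries, and 0 to 1 when 1 library was left out (1 without vehicle replicate 3 or BPA replicate 2). The rank of Ptms in absolute difference among genes of like abundance, 1 in the report, was 1 to 3 with 1 library left out and 5 without both choroid-rich libraries, and stayed at 1 with 50 or 250 genes on either side. List members at an unadjusted p under 0.05 numbered 1 in the report, 2 with library size alone, 3 with no filter, 8 without both choroid-rich libraries, and 1 to 6 with 1 library left out (6 without vehicle replicate 2, 3 without BPA replicate 2, 2 without vehicle replicate 1 or BPA replicate 3). By edgeR's quasi-likelihood test, all genes with an unadjusted p under 0.05 also varied in number. They were 302 of 13741 in the report, 293 of 13741 with library size alone and 620 of 23501 with no filter. Without both choroid-rich libraries they were 954 of 13643. They numbered 708 of 13886 without vehicle replicate 2 and 563 of 14010 without BPA replicate 2. Without vehicle replicate 1 they were 346 of 13925, and without BPA replicate 3 they were 317 of 14037. The cause of these shifts was not tested. Scaling moved the median of all genes by less than 0.01 on the log2 scale. No paired analysis was possible because the labels give sample numbers but no replicate number shared by the groups.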

Other observations

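After each group's mean was subtracted, so that the treatment difference no longer entered, the log2 CPM of Ptms and Ptma over the 6 libraries had a Pearson r of 0.71, and Ptma ranked 353 of 2711 genes in likeness to Ptms. The genes most like Ptms on this measure were Zfp57 (a zinc finger protein that maintains imprints, r = 0.998), Pip5k1c (a lipid kinase, 0.995), Numbl (a Notch pathway adaptor, 0.99), Jak2 (a cytokine receptor kinase, 0.99) and Hectd3 (a ubiquitin ligase, 0.98). Their groups overlapped, with log2 fold changes from 0.0055 for Numbl to 0.15 for Zfp57. For Ptma they were Eif4enif1 (0.99), Trim3 (0.98), Aldoc (a glycolytic aldolase, 0.96), Eif4e2 (a cap-binding protein, 0.96) and Mgat5b (0.96). Eif4enif1 and Mgat5b were also among the 5 genes most like Ptma before the subtraction, whereas none of the 5 genes most like Ptms recurred. These values of r rest on 6 libraries, and on fewer independent values once the group means are subtracted. Within a library all genes share depth and dissection, so r is given as a description.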
